A study of Mus musculus with 6 samples.

Results

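The S100 proteins are small calcium sensors of vertebrates, and 10 of their genes were followed here in mouse prostate tumor cells stimulated with CSF-1, the growth factor of the monocyte and macrophage lineage. The members were taken by name, as the probes whose gene name on the array was S100a1, S100a3, S100a4, S100a6, S100a8, S100a9, S100a11, S100a13, S100a14 or S100a16. They were 10 of 36163 genes and 13 of 55681 probes, with a pair of probes each for S100a1, S100a4 and S100a16. RNA came from N18-Fms cells and was hybridized to 6 single-color Agilent arrays, 2 per group. The Control group was left unstimulated, the 24H CSF1 group received recombinant mouse CSF-1 (rmCSF-1) at 100 ng/mL for 24 h, and the 48H CSF1 group received the same dose for 48 h. The medium of every group contained serum and dihydrotestosterone, an androgen. Every group also carried the receptor: N18 is a luciferase-transfected, neomycin-selected clone of TRAMP C2H, itself a clonal line from a prostate tumor of TRAMP mice, and N18-Fms is the population of this clone sorted for CSF-1R (Fms) after retroviral transduction. The comparisons therefore ask what added CSF-1 changed in cells of 1 clone that all had the receptor, and cells without it were not among these arrays.

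Each S100 protein carries a pair of EF-hands, helix-loop-helix folds whose loops hold a calcium ion. Most form dimers that open on calcium binding and then grip partner proteins such as annexins, nonmuscle myosin and p53. Some are also released, and outside the cell they bind receptors such as RAGE (Ager) and Toll-like receptor 4. In tumors S100a4 is known for its link to motility and metastasis, whereas S100a8 and S100a9 form calprotectin, the abundant calcium- and zinc-binding complex of neutrophils and monocytes.

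Levels are given on the log2 scale relative to the array's 75th percentile of the background-subtracted spot signal, so that 0 is a gene at that percentile. Changes were taken within a probe across arrays, since probes differ in how brightly they hybridize. Sums over the gene lists below add different probes, so shares of a sum also reflect how brightly its probes hybridize. Between 58.7% and 72.0% of spots were well above background on each array and 0 were saturated. The first 24H CSF1 replicate lay alone on another slide with another scan, and the other 5 arrays shared 1 slide and scan. Against the epithelial label, Cdh1 (E-cadherin) was well above background on 0 arrays and Epcam on 1, while Krt8, Krt5 and Krt14 (keratins) were on 6. Of the prostate genes reported here, Psca was well above background on 6 arrays, Pbsn (probasin) on 4 and Tmprss2 on 0. With 2 arrays per group, an exact permutation test of 1 gene cannot go below p = 0.333, so the tests below come from limma fitted across all genes.

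Of the 10 members, 8 had both arrays of some group well above background and entered the test, with 24648 genes in all. At 24 h, 2 of them fell at an adjusted p under 0.05 (S100a3 and S100a4) and 0 rose, against a background of 5.99% of all genes tested that fell and 8.02% that rose. At 48 h, 1 of them fell (S100a16) and 0 rose, against a background of 7.38% that fell and 6.58% that rose. Between 48 h and 24 h, 0 of 8 members passed, as did 0 of all genes in limma (0%), while 3 members and 3357 of all genes (13.6%) had an unadjusted p under 0.05. The count over all genes was 195 with an intensity trend in limma's prior spread and 210 and 314 with normexp background correction, with 0 members in each. At the thresholds of the study's volcano plots, an unadjusted p under 0.05 with a 2-fold change, 0 members passed in any comparison by their brightest probes, against 7.68% of genes at 24 h, 6.48% at 48 h and 2.27% between the times. The dimmer S100a16 probe, tested on its own, passed them at 24 h (log2 fold change -1.03, unadjusted p = 0.00064 in limma). Of the genes called at 24 h, 57.2% were higher; this share was 24.4% with median centring, which moved the median of all genes from 0.04 to -0.25, and 45.1% and 47.2% with normexp background correction.

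S100a14 passed the filter only through the Control arrays, so the family is summarized over the 7 members measured on all 6 arrays. All 7 lay below 0 at 24 h, with a median log2 fold change of -0.20 and a range from -0.81 to -0.01. The median was 0.009 over the 21322 genes measured on all 6 arrays. Over all genes tested it was 0.04, with 45.5% below 0. The value of S100a11 turned to 0.065 with quantile normalization. At 48 h, 5 of the 7 lay below 0, with a median of -0.14 beside -0.06 over the genes measured on all 6 arrays. From 24 h to 48 h, 5 of the 7 lay above 0, with a median of 0.26 beside -0.07 over the same genes. These 3 comparisons share arrays. Both arrays of 24H CSF1 were below both Control arrays for 5 of the 7, against a background of 30.8% of genes measured on all 6 arrays. At 48 h this held for 5 of 7, against 35.0% of all genes tested and 37.4% of genes measured on all 6 arrays. The reverse held at 48 h for S100a1 and S100a13, against 23.8% of all genes tested and 22.8% of those measured on all 6 arrays.

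**Figure D1:**
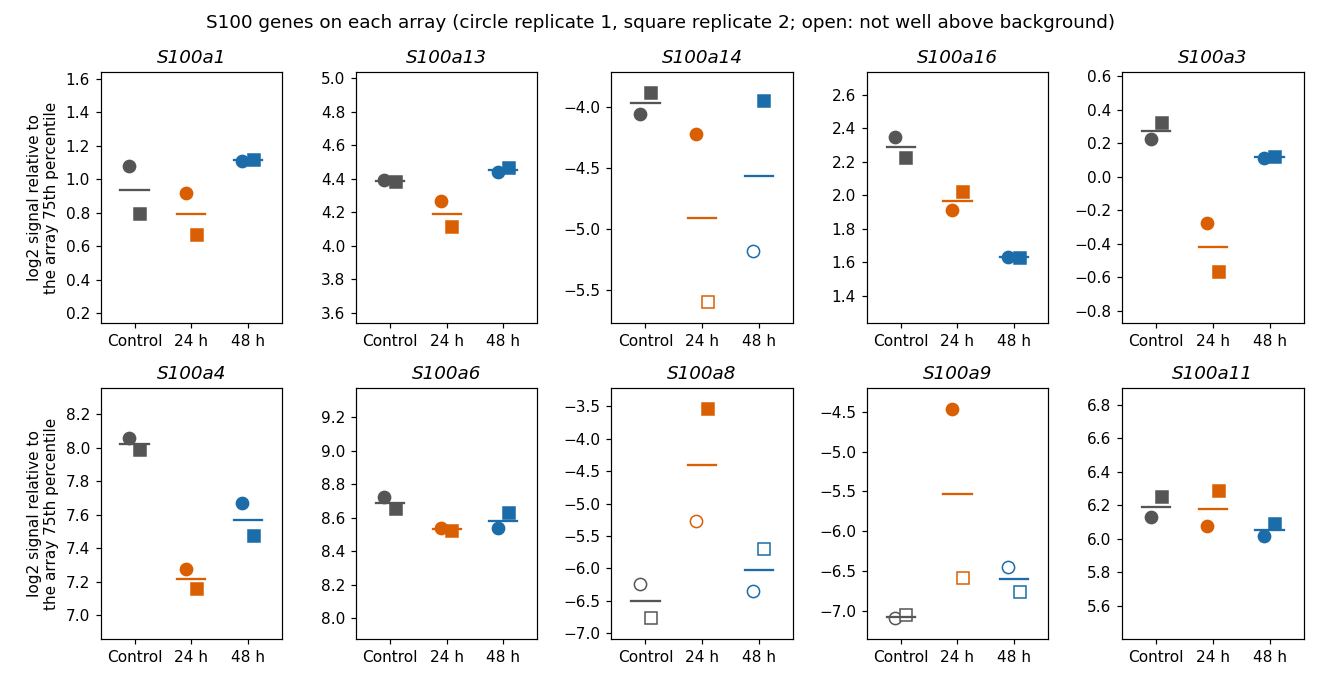
Level of each S100 gene (log2 signal relative to the array's 75th percentile, 1 panel per gene with its own axis) in the Control, 24 h and 48 h CSF-1 groups; points are arrays, lines are the means of 2 arrays, and open points were not well above background. S100a4 and S100a3 are lowest at 24 h and S100a16 at 48 h, and S100a8 and S100a9 have 1 filled point each.

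**Figure D2:**
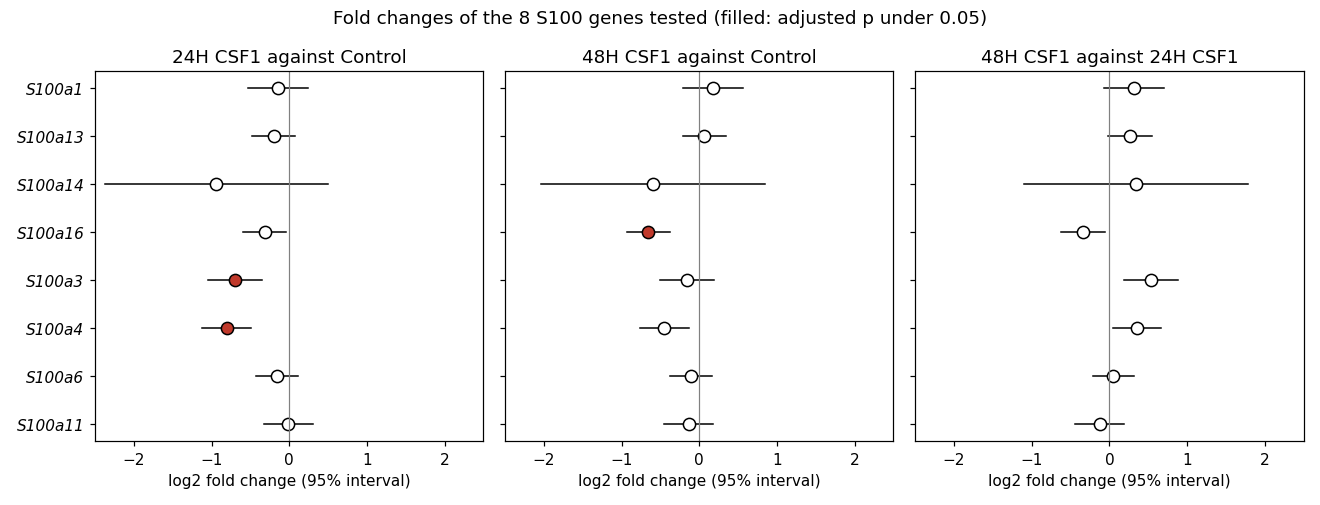
Log2 fold change of the 8 S100 genes tested in the 3 comparisons, with 95% intervals from limma (2 arrays per group); filled points had an adjusted p under 0.05. S100a3 (-0.69) and S100a4 (-0.81) are filled at 24 h, S100a16 (-0.65) at 48 h, and no gene between the times.

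S100a4, also called metastasin or fibroblast-specific protein, binds nonmuscle myosin and fell most clearly. Its brighter probe (NM_011311, mm9 chr3:90409908-90409967, plus strand) read 8.06 and 7.98 on the Control arrays, 7.27 and 7.15 at 24 h, and 7.67 and 7.47 at 48 h. Every stimulated array was below both Control arrays, and both arrays at 48 h were above both at 24 h. The fall at 24 h was 1.75-fold (log2 fold change -0.81 ± 0.12 SE, n = 2 per group, adjusted p = 0.0178). At 48 h the log2 fold change was -0.45 ± 0.12, with an adjusted p of 0.0725 that missed the threshold. The step from 24 h to 48 h, 0.35 ± 0.12, had an adjusted p of 0.317. The dimmer probe, 1 of 34814 probes tested on their own, read 7.23 and 7.30 in Control, 6.42 and 6.25 at 24 h, and 6.74 and 6.62 at 48 h. It fell by 0.92 on the log2 scale at 24 h (adjusted p = 0.0139) and by 0.58 at 48 h (adjusted p = 0.0445). Both probes thus followed 1 course, lowest at 24 h.

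S100a4 is a common marker of fibroblasts, and the fibroblast list moved in the same arrays. Its 6 genes were all measured on 6 arrays. Their summed linear level, in units of the 75th percentile, was 320.5 to 324.2 in Control, 135.8 to 145.0 at 24 h and 119.3 to 162.4 at 48 h. This sum came almost wholly from the collagen genes Col1a1 (6.95 and 6.97 in Control) and Col1a2 (7.63 and 7.58), so it does not describe the list. The next highest, Pdgfrb, read 1.25 and 1.83 in Control. Of the 6 genes, 4 fell at each time, against 6.63% at 24 h and 8.12% at 48 h of genes measured on all 6 arrays. Among the 4 were Dpt (dermatopontin, log2 fold change -1.86 and -1.87), Pdgfrb (a growth factor receptor, -1.91 and -1.12) and Col1a2 (a collagen chain, -1.44 and -1.23). Pdgfra rose at 24 h by 1.33, and Thy1 gave 0.63 and 0.43 without passing. In bulk RNA, fewer cells of a type and less RNA per cell cannot be told apart. The cells came from a clonal line, and the part of this shift in the S100a4 values was not tested.

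The RefSeq promoter of S100a4 is printed because this gene fell most clearly, over the 250 bases before its start (GRCm38.p6, chr3:90603520-90603769, plus strand). Positions count from 0 at the start. Capitals mark TATAAA at -31, and letters that match the NF-kB motif at -11.
S100a4 promoter: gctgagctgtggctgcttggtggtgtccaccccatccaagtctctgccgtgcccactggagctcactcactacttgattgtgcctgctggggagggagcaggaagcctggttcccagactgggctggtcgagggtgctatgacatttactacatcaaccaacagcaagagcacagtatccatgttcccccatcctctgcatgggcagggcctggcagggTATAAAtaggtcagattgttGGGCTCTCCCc

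S100a3, a zinc- and calcium-binding member best known from hair cuticle, fell at 24 h and stood near its Control level at 48 h. Its probe (NM_011310, mm9 chr3:90406396-90406455, plus strand) read 0.22 and 0.32 in Control, -0.27 and -0.57 at 24 h, and 0.11 and 0.12 at 48 h. Both 24 h arrays were below all other arrays. The fall at 24 h was 1.62-fold (log2 fold change -0.69 ± 0.14 SE, adjusted p = 0.0332). At 48 h the log2 fold change was -0.16 ± 0.14 (95% interval -0.50 to 0.19, adjusted p = 0.503). The step from 24 h to 48 h was 0.54 ± 0.14, with an unadjusted p of 0.0099 in limma and an adjusted p of 0.215. The probes of S100a3 and S100a4 are 3452 bases apart, and S100a2, which RefSeq places between them by start, gave 0.17 ± 0.13 at 24 h (adjusted p = 0.447). The S100a3 probe at 24 h without the first 24H CSF1 array, the one on the other slide, gave -0.84 (adjusted p = 0.0587), and S100a4 gave -0.87 (adjusted p = 0.0687). A slide block gave the same log2 fold changes, since that array is alone on its slide, with adjusted p of 0.0579 and 0.0677.

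S100a16, a widely expressed member of the family, fell at 48 h by 1.57-fold. Its brighter probe (NM_026416, mm9 chr3:90346529-90346588, plus strand) read 2.35 and 2.22 in Control, 1.92 and 2.02 at 24 h, and 1.63 and 1.63 at 48 h. The groups did not overlap and stepped down with time. The log2 fold change was -0.65 ± 0.11 SE at 48 h (adjusted p = 0.0232) and -0.32 ± 0.11 at 24 h (adjusted p = 0.123). The second probe, chr3:90346875-90346934, read 0.10 and 0.36 in Control, -0.87 and -0.73 at 24 h, and -0.51 and -0.37 at 48 h. It fell by 1.03 on the log2 scale at 24 h (adjusted p = 0.0153) and by 0.67 at 48 h (adjusted p = 0.0454). Both probes were lower than Control at both times, but they disagreed on the course from 24 h to 48 h, with -0.34 ± 0.12 for the brighter probe and 0.36 ± 0.15 for the dimmer, neither past the threshold (adjusted p = 0.312 and 0.375). With the mean of both probes, the 24 h fall passed as well (-0.67, adjusted p = 0.0239).

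**Figure D3:**
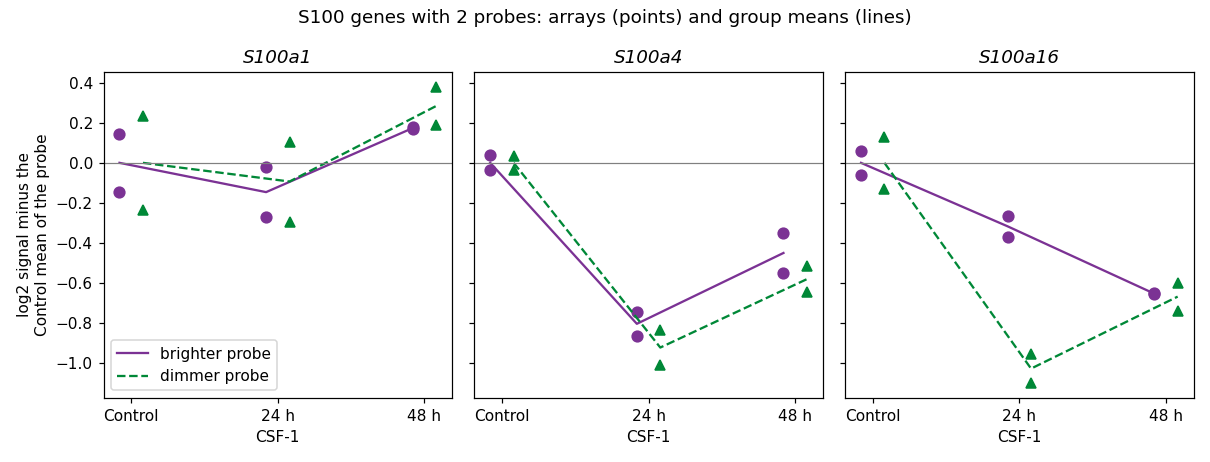
Log2 signal of the brighter (circles, solid line) and dimmer (triangles, dashed line) probe of S100a1, S100a4 and S100a16, minus the mean of that probe on the 2 Control arrays; points are arrays and lines join group means. The S100a4 probes run together, while the S100a16 probes part at 24 h (-0.32 against -1.03) and meet at 48 h (-0.65 and -0.67).

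The second of the RefSeq starts of S100a16 carried an AP-1 motif (TGANTCA, in capitals) at -192, 1 of 2 member genes with this motif, and is printed for that reason (GRCm38.p6, chr3:90540896-90541145, plus strand). The first start held 0 of the motifs searched.
S100a16 promoter, second start: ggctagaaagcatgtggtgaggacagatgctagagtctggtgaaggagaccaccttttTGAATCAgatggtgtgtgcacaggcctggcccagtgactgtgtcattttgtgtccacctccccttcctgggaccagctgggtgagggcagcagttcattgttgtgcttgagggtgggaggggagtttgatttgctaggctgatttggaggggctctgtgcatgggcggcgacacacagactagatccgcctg

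S100a6 (calcyclin), which binds annexins and the ubiquitin ligase adaptor Cacybp, held its level within narrow limits. It read 8.73 and 8.66 in Control, 8.54 and 8.52 at 24 h, and 8.54 and 8.63 at 48 h, with no saturated spot. Stimulated arrays were all below Control, but the log2 fold changes were -0.16 at 24 h (95% interval -0.43 to 0.11) and -0.11 at 48 h (-0.38 to 0.16). S100a11 (calgizzarin), a partner of annexin A1, read 6.13 and 6.25 in Control, 6.08 and 6.28 at 24 h, and 6.02 and 6.09 at 48 h. The groups overlapped at 24 h, where its log2 fold change was -0.01 (-0.33 to 0.31), and at 48 h it was -0.14 (-0.46 to 0.18). For both genes a change of 2-fold lies outside these intervals. S100a10, which is no member but forms the annexin A2 tetramer, gave 0.16 ± 0.14 at 24 h and -0.03 ± 0.14 at 48 h, and Anxa2 itself gave 0.22 ± 0.10 and 0.16 ± 0.10, none past the threshold.

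S100a1, known from heart and skeletal muscle as a regulator of calcium release, and S100a13, a carrier in the release of FGF1 and interleukin-1 alpha, start 105 bases apart on opposite strands, and their promoter windows overlap by 204 bases. The brighter S100a1 probe read 1.08 and 0.80 in Control, 0.92 and 0.67 at 24 h, and 1.11 and 1.12 at 48 h. S100a13 read 4.39 and 4.38 in Control, 4.27 and 4.11 at 24 h, and 4.44 and 4.46 at 48 h. For both, the 24 h arrays had the lowest mean and the 48 h arrays the highest. Their log2 fold changes against Control were -0.15 (95% interval -0.53 to 0.24) and 0.17 (-0.21 to 0.56) for S100a1 and -0.20 (-0.48 to 0.08) and 0.06 (-0.21 to 0.34) for S100a13. None passed, and neither did the steps from 24 h to 48 h of 0.32 (adjusted p = 0.437) and 0.26 (adjusted p = 0.388). The dimmer S100a1 probe gave -0.09 and 0.28 with overlapping groups.

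S100a14, an epithelial member, was near the detection limit. Its probe read -4.05 and -3.88 in Control, -4.22 and -5.60 at 24 h, and -5.18 and -3.95 at 48 h. It was well above background on 4 of 6 arrays. The second 24H CSF1 array and the first 48H CSF1 array were not above background, while the other array of each group read close to Control. The log2 fold changes of -0.94 at 24 h (95% interval -2.38 to 0.50, adjusted p = 0.336) and -0.59 at 48 h (-2.04 to 0.85, adjusted p = 0.545) rest on those arrays. Without the second 24H CSF1 array the value at 24 h was -0.25, and without the first 48H CSF1 array the value at 48 h was 0.02.

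S100a8 and S100a9, the calprotectin subunits, were not well above background on either Control array or either 48H CSF1 array and were not tested. S100a8 read -6.23 and -6.77 in Control, -5.27 and -3.55 at 24 h, and -6.35 and -5.70 at 48 h. Only the second 24H CSF1 array was well above background. S100a9 read -7.10 and -7.05 in Control, -4.46 and -6.59 at 24 h, and -6.45 and -6.76 at 48 h. Only the first 24H CSF1 array, the one on the other slide, was well above background. The subunits were thus seen above background at 24 h only, each on 1 array and not on the same one. With Control and the other 24 h array not above background, no fold is given for either gene.

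Genes typical of neutrophils, the main source of calprotectin, were set beside these values. Of 9 on the array, S100a8 and S100a9 included, 5 were tested, 0 passed at either time in limma, and Mpo (myeloperoxidase) was well above background on 0 arrays. Elane (neutrophil elastase) and Csf3r (a colony-stimulating factor receptor) were on 6. The summed level of the list was 125.4 to 143.4 in Control, 126.8 to 129.6 at 24 h and 127.8 to 137.3 at 48 h. Nearly all of it came from Elane (5.98 and 5.91 in Control) and Csf3r (6.32 and 6.02), so the sum does not describe the list. Every other gene of the list read below 0 on every array. The part of the list in the S100a8 and S100a9 values was not tested.

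Promoters of this pair are printed because the genes are known for joint expression in myeloid cells (GRCm38.p6, chr3:90668821-90669070, plus strand, and chr3:90695722-90695971, minus strand). Capitals mark TATAAA at -30 in S100a8 and a C/EBP motif at -236 in S100a9.
S100a8 promoter: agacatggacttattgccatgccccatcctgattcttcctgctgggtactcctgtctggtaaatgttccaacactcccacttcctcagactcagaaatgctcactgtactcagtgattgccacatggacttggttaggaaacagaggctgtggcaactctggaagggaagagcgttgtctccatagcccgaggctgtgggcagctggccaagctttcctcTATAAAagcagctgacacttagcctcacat
S100a9 promoter: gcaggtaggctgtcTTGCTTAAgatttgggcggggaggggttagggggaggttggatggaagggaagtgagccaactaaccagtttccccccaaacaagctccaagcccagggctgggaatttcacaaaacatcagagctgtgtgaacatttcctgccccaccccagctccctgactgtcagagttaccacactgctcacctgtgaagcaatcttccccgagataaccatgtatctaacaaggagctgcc

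The motifs were searched on both strands from 250 bases before to 50 after each RefSeq start, in 13 windows of 9 members and in 32851 windows of all genes; S100a14 was not matched. The STAT motif TTCNNNGAA was in 0 of 13 member windows and in 8.3% of all. The C/EBP motif TTGCNNAA was in 1 (S100a9), against 10.8% of all, and the AP-1 motif TGANTCA in 2 (S100a16 and S100a11), against 7.81%. The NF-kB motif was in 2 (S100a4 and S100a11), against 20.7%, and TATAAA in 4 windows, those of S100a3, S100a4, S100a8 and, just past the printed bases, S100a9, against 13.6%.

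A pair of member probes reads straight through the coding sequence of the family's signature, the calcium loop of an EF-hand, and these are printed to show it. Capitals mark the stretch that matched the codon pattern of the loop (A_55_P1979645 for S100a1 and A_51_P256827 for S100a8, both 60 bases).
S100a1 probe: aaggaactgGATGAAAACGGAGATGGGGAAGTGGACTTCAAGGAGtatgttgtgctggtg
S100a8 probe: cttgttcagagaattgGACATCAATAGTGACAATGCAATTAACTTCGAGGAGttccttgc

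This pattern was found in 2 of 13 member probes and in 3 of all 55681 probes, the other being for Cabp4, a further calcium-binding protein.

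All members lie on chromosome 3. In mm9 the probes of 9 of them, S100a1 to S100a9, fall within 181.7 kb (chr3:90314959-90496632), and S100a11 lies 2.83 Mb further on. Between S100a9 and S100a11 are the skin barrier families, among them the Sprr genes, whose closely related copies may share probes. Of the 8 Sprr genes tested there, 4 rose and 1 fell at 24 h, beside 8.02% and 5.99% of all genes tested. At 48 h 4 rose, beside 6.58%. Of the 9 Lce genes tested in this interval, 0 passed at either time, as did 0 of the 4 other S100 genes tested from S100a1 to S100a10. Of the 8 S100 genes on the array that are no members, on this chromosome or elsewhere, 5 were tested and 0 passed in limma at either time. An unadjusted p under 0.05 in limma was found for 1 at 24 h and 3 at 48 h, beside 31.3% and 30.9% of all genes. Among the 5, S100a7a and S100z were well above background on 2 and 4 arrays and entered the test only through Control. S100pbp, which is no S100 gene but encodes a protein that binds S100P, rose at 24 h (0.58 ± 0.11, adjusted p = 0.031). S100b, the glial member, was well above background on 0 arrays.

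In the list of receptors that S100 proteins bind, or that lie in their signaling, more genes rose than fell. The list was chosen with earlier results of these data known, so its counts are given as a description. Of 16 listed genes on the array, 12 were measured on all 6 arrays. Of these, 3 rose at 24 h and 4 at 48 h, with 0 lower at either time. Among all genes measured on 6 arrays, 6.63% rose at 24 h and 6.17% at 48 h. The median over the 12 was 0.25 at 24 h and 0.48 at 48 h on the log2 scale, beside 0.009 and -0.06 over all genes measured on 6 arrays. Myd88, the adaptor below Toll-like receptors, rose by 1.41 ± 0.20 and 1.08 ± 0.20 (adjusted p = 0.0139 and 0.0279), and Alcam, an adhesion molecule, by 0.87 ± 0.14 and 1.26 ± 0.14 (adjusted p = 0.0184 and 0.00739). Cd14, a co-receptor of Tlr4, rose by 0.87 and 0.69, and Ly96, another, passed at 48 h alone (0.64, adjusted p = 0.0444). Cd33, a sialic acid-binding receptor that takes S100A9 as a ligand, was well above background on 1 of the 2 Control arrays and so stands outside these counts. It read -4.41 and -4.30 in Control, -3.36 and -3.69 at 24 h, and -2.24 and -2.48 at 48 h. It passed at both times (adjusted p = 0.0325 and 0.00331). Its Control level lay near the detection limit, and it entered the test through the stimulated groups, where it was higher. The receptors best known for S100 ligands did not pass. Tlr4 gave -0.25 ± 0.21 and -0.09 ± 0.21, Bsg (basigin) gave 0.13 ± 0.12 and 0.25 ± 0.12, and Ager was well above background on 0 arrays. Cd14 also stands on the macrophage list of 10 genes, of which 5 were measured on all 6 arrays, Itgam, Emr1, Ptprc, Mrc1 and Cd14. Of these 5, Cd14 and Mrc1 (a mannose receptor, 4.27 and 3.56) rose at each time, and the median was 0.68 at 24 h and 0.18 at 48 h. Lyz2, another defining macrophage gene, was well above background on 0 arrays. The summed linear level of the list was 40.1 to 44.8 in Control, 33.1 to 40.4 at 24 h and 26.5 to 35.7 at 48 h, but Itgam alone made up 78.7% to 94.3% of it, and its own log2 fold changes of -0.43 and -0.65 did not pass. The part of these genes in the receptor values was not tested.

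Intracellular partners gave few calls. Of 27 tested, 1 rose and 3 fell at 24 h, beside 8.02% and 5.99% of all genes, and 2 rose and 2 fell at 48 h, beside 6.58% and 7.38%, so that nothing is read from the counts. Fgf1, a growth factor released with the help of S100A13, read -5.01 and -5.44 in Control, where it was not well above background, -1.29 and -0.76 at 24 h, and -1.17 and -0.94 at 48 h. It was at least 12.99-fold higher at 24 h and at least 12.7-fold higher at 48 h (adjusted p = 0.00179 and 0.00145). Fgf1 entered the test only through the stimulated groups, where it was higher, and its p-values rest on Control values below that limit. Tpm1, a tropomyosin that binds S100 proteins, fell by 0.91 at 24 h and by 0.65 at 48 h (adjusted p = 0.00956 and 0.0235). These were the partners that passed at both times. At 24 h only, Anxa1 (annexin A1) gave -0.86 and Ahnak, a scaffold bound by S100A10 with annexin A2, gave -1.07, and at 48 h only, Ezr (ezrin) gave 0.58 and Ppp5c (a phosphatase) gave -0.76. Of 28 other EF-hand genes tested, 2 rose and 2 fell at each time, close to these shares of all genes, Swap70 (1.20 and 0.80) and Efhd2 (0.55 and 0.51) upward and Sparc (a matricellular protein, -1.01 and -0.89) and Sri (sorcin, -0.54 at both times) downward.

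The remaining marker lists gave few calls. Of the 5 epithelial genes tested, 0 passed at 24 h and Krt8 rose at 48 h by 1.98, Psca among the prostate genes fell at 48 h by 0.77, and of the 3 keratinocyte genes 0 passed in limma at either time.

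The genes most like S100a1, the tested member with the highest mean of its 2 log2 fold changes, across the 6 arrays were Tuba3a (Pearson r = 0.992), Cypt10 (0.991) and Morn5 (0.990). Cypt10 was well above background on 6 arrays, Tuba3a on 5 and Morn5 on 3. For S100a14, the lowest, none are given, since its probe was not above background on 2 of the 6 arrays. The 3 values are the highest of 24648 genes over 6 arrays that share 1 hybridization platform, and they are given as a description.

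The calls on members were near the threshold and moved with the settings. S100a4 kept a negative log2 fold change at 24 h under all 20 other settings and stayed under an adjusted p of 0.05 in 13, S100a3 in 11 of 20, and S100a16 at 48 h in 13 of 20. Leaving out any 1 of the 6 arrays ended the S100a3 and S100a16 calls, and ended the S100a4 call except without the second 48H CSF1 array.

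**Figure D4:**
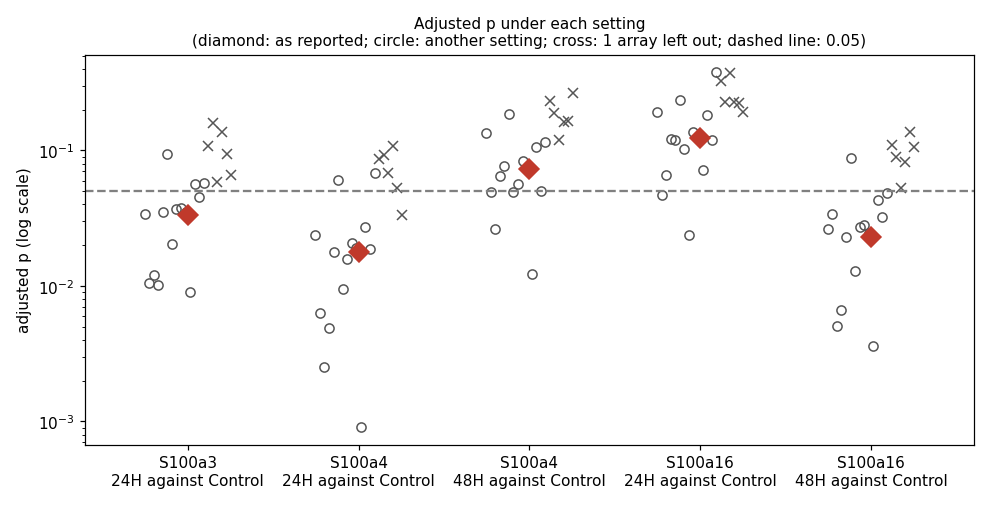
Adjusted p (log axis) of S100a3, S100a4 and S100a16 against Control as reported (diamond), under other settings (circles) and with 1 array left out (crosses); the dashed line is 0.05. Most circles lie on the same side of the line as their diamond, and all crosses but 1, for S100a4 at 24 h, lie above it.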

How the data were processed

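Groups were taken from the labels, which give 24 h and 48 h, as do the study's results; its methods section gives other times. The labels speak of 2 independent experiments but do not tie a replicate number to one. The authors deposited the scanner output of every array (Agilent Feature Extraction 11.0.1, per the submitters' processing notes), which holds a background-subtracted, detrended intensity per spot, not normalized between arrays. They also deposited log2 values per probe, whose normalization is not given in the sources used here; 99.78% of their differences between arrays lay within 0.05 of those used here, over 44323 shared probes.

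The 3671 control spots and spots flagged as outliers were left out, with 303 probes lost. Repeated spots were averaged, and log2(signal) minus the array's 75th percentile was taken. The brightest probe stood for a gene, and a gene was tested where both arrays of some group were well above background. All 6 arrays entered 1 fit in limma 3.58.1 (R 4.3.3, lmFit and eBayes, 2-sided, 3 residual and 2.39 prior degrees of freedom), and p-values were adjusted over all tested genes by Benjamini-Hochberg. Errors after ± are standard errors, n = 2 per group. The fit was tested on simulated data. The number of arrays limits the precision. Alternatives covered scaling, background correction, the filter, probes, blocks and each array left out.

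The members, gene lists and motifs were chosen with earlier results of these data known, and TATAAA and the counts over genes measured on all 6 arrays were added after the data were seen. All members were named; of each list, the 3 genes with the highest mean change among those passing at both times, with S100a10, Anxa2, Ager, Tlr4 and Bsg. Genes passing at 1 time, and S100a2, S100b and the marker genes, were named after their values were seen. Promoters and names came from RefSeq (GRCm38.p6), and probe positions (mm9) from the files. Proteins were not used here. Some marker genes are not reported here.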

Additional observations from a re-analysis of the deposited data

How the results depend on the processing

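Of the 63 counts of members recomputed, 39 stayed within 1.5 times the reported count and 24 moved. The 39 include every count between the times, which was 0 under each setting. All 24 that moved were counts against Control. At 24 h, where 2 members passed, the count was 0 without a filter on dim probes, 0 with the slide as a block, 0 at the volcano plot thresholds and 1 with only the 2 groups compared, and it ranged from 0 to 1 with each array left out, where without either 24H CSF1 array the 1 was S100a8 or S100a9, brought past the filter by the single array left. It was 3 with median centring, the mean of a gene's probes and every probe on its own, S100a16 being the third. Counts at the volcano plot thresholds are by the brightest probes. At 48 h, where 1 passed, it was 2 with median centring, normexp at the 75th percentile, all 6 arrays well above background, every probe on its own, the intensity trend and the replicate block, S100a4 being the second in each. It was 0 without a filter and 0 at the volcano plot thresholds, and 0 in every fit with 1 array left out. Between the times it was 0 throughout. The replicate block changed no other call, and the labels do not tie the numbers to the 2 experiments, though deviations of same-numbered arrays correlated at 0.165 to 0.249 over 29332 probes. The block called 3800 genes in place of 3454 at 24 h and 3967 in place of 3441 at 48 h. Among single members, 13 values changed sign, all of them without a call. S100a11 at 24 h was 0.065 with quantile normalization, 0.039 with normexp and quantile, 0.092 with the slide as a block, and -0.11 to 0.092 with each array left out, and between the times it was 0.057 with median centring. S100a6 at 48 h was 0.0050 with quantile normalization and 0.022 with normexp and quantile, S100a13 at 48 h was -0.035 with median centring, and S100a16 between the times was 0.012 with the mean of its probes. S100a14 with each array left out ranged from -1.21 to 0.017 at 48 h and from -0.35 to 1.03 between the times. Leaving out an array also leaves fewer degrees of freedom; other causes were not tested. The signal over background limits S100a8, S100a9 and S100a14.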
